A study of Saccharomyces cerevisiae with 14 samples.

Results

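The RNAs crosslinked to Hel2 in wildtype budding yeast were compared between cultures grown at 20°C and cultures grown at 30°C. The comparison used 4 of the 14 libraries analysed here, those whose labels name Hel2-HTP in a wildtype background, with 2 biological replicates at each temperature. The strain was BY4741 (MATa his3Δ leu2Δ met15Δ ura3Δ) with HEL2 carrying an HTP tag marked with URA3, and cells were crosslinked with UV light at an optical density of about 0.5. The HTP tag joins a histidine tag and protein A with a protease site between them, so that crosslinked protein can be purified in consecutive steps. Hel2-HTP libraries from new1Δ cells, which carry the same tag and lack the New1 protein, and libraries from untagged BY4741 cells were made at both temperatures and are given beside the wildtype values.

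The temperatures also differed in how cultures and libraries were made. All labels name a synthetic medium without tryptophan, whereas the methods add that the colder cultures lacked uracil as well. The colder cultures were larger. In the colder samples the protein was bound to magnetic beads, RNase digestion of Hel2-HTP was shorter, gel pieces were digested in place of a membrane, a reverse transcription primer without an index was used, RNA was removed with RNase H, and products were selected by size on polyacrylamide and not on agarose. Gel pieces of several colder samples were pooled in a tube for protease digestion. Each replicate at each temperature had a sequencing run of its own. The temperature of growth and the preparation of the libraries therefore cannot be told apart in any value below. No RNA abundance was measured in these libraries, so that more of an RNA and more Hel2 on each molecule of it cannot be told apart either.

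Hel2 is an E3 ubiquitin ligase that recognises collided ribosomes and ubiquitinates proteins of the small ribosomal subunit, which starts the ribosome-associated quality control of the nascent chain and no-go decay of the mRNA. In CRAC, UV light joins a protein to the RNA it touches, and the purified fragments are turned into cDNA and sequenced. Because Hel2 works on translating ribosomes, its crosslinked RNA holds ribosomal RNA, tRNA and mRNA.

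The wildtype libraries held 1457456 and 2965747 reads on features at the lower temperature, against 2261279 and 961836 at the higher. Sense reads per distinct cDNA came to 3.41 and 4.09 at 20°C and 5.88 and 2.11 at 30°C. The deposited cDNA column also counts antisense reads, so this ratio is only a rough guide to duplication and fell to 0.788 in untagged 20°C replicate 1. Among the wildtype libraries, the least sequenced one, 30°C replicate 2, had the lowest ratio. That library had reads on 5008 of 5838 protein-coding genes, against 2995 to 4044 in the others. Without a tag, 829 and 66609 reads were found in the colder libraries, against 1190800 and 70564 in the warmer ones. In the colder pair 363 and 1897 of them lay on mRNA, too few to give a background per mRNA. On tRNA lay 131 and 1741 in the colder pair, against 13205 and 1097 in the warmer, so that untagged tRNA shares are given for both temperatures but rest on few reads. Reads of mating type a genes summed to 373 to 1652 per wildtype library and those of the alpha genes to 0 to 12, and LEU2, listed as deleted in BY4741, had none. HIS3, also listed as deleted, had 33 and 234 reads at 20°C against 19 and 53 at 30°C. HEL2 had 515 and 315 reads at 20°C against 217 and 129 at 30°C, and NEW1 had 363 and 1192 against 220 and 105. The file header of new1Δ 20°C replicate 2 names New1-HTP as its input, against its label. That library held 0 reads of NEW1, the label was kept, and the tests between the strains are also given without it.

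Messenger RNA took a larger part of the Hel2-bound reads at 20°C and ribosomal RNA a smaller one. mRNA made up 51.9% and 49.0% of reads in the 20°C libraries and 38.2% and 38.7% in the 30°C libraries, a mean of 50.4% ± 2.07 (SD, n = 2) against 38.4% ± 0.351 (SD, n = 2). The 18S rRNA of the small subunit, where Hel2 binds, gave 21.5% and 25.6% at 20°C against 32.9% and 33.8% at 30°C. The 25S rRNA of the large subunit gave 7.74% and 7.63% against 10.2% and 14.0%. Both large rRNAs thus lay lower in both colder libraries, and the ratio of mRNA reads to all cytosolic rRNA reads was 1.41 and 1.23 at 20°C against 0.827 and 0.762 at 30°C. Outside rRNA, mRNA still made up 82.1% and 81.4% against 71.0% and 78.6%. In distinct cDNAs the mRNA difference was 3.59 percentage points.

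The small rRNAs of the large subunit went the other way. 5S rRNA, which forms the central protuberance, held 2.35% and 2.71% of reads at 20°C against 0.409% and 0.547% at 30°C, a 5.30-fold difference of the means. The difference was 2.05 percentage points in reads and 0.516 in distinct cDNAs. 5.8S rRNA held 4.93% and 3.28% against 2.38% and 2.19%. The new1Δ libraries had the same order, with 5S rRNA at 3.20% and 4.36% at 20°C against 0.741% and 0.810% at 30°C. In the untagged 30°C libraries 5S rRNA took 0.546% and 0.782%, within the range of the tagged 30°C libraries, and in those at 20°C it took 1.33% and 0.011%. 18S rRNA took 3.21% and 6.02% without a tag at 30°C and 12.7% and 25.2% at 20°C. The untagged shares of 25S rRNA were 59.5% and 44.0% at 30°C and 17.4% and 28.6% at 20°C.

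Among the smaller classes, snoRNAs, which guide modification of rRNA in the nucleolus, held 0.364% and 0.342% at 20°C against 0.441% and 0.734% at 30°C. Without a tag snoRNAs held 0.241% and 1.82% at 20°C and 0.997% and 3.01% at 30°C, the latter above the tagged wildtype libraries. In wildtype, tRNA held 6.56% and 7.44% against 11.7% and 5.28%, so that its groups overlapped. Cryptic unstable transcripts (CUTs), short-lived products of divergent promoters, held 0.920% and 0.621% against 0.439% and 0.577% in wildtype, and the opposite order, 0.419% and 0.318% against 0.804% and 0.571%, in new1Δ. In distinct cDNAs the wildtype difference turned to -0.0729 percentage points. With 2 libraries against 2, an exact two-sided permutation test cannot give a p below 0.333, which was the value for each class whose groups did not overlap. Permuting wildtype and new1Δ libraries within strain allows a p of 0.0556 at the least. 5S, 5.8S and 25S rRNA, snoRNA, Xrn1-sensitive unstable transcripts (XUTs) and pseudogenes reached it (adjusted p = 0.157 over 17 classes). XUTs held 0.247% and 0.226% at 20°C against 0.250% and 0.281% at 30°C in wildtype, and 0.850% and 1.12% without a tag at 30°C. In the same exact test mRNA had p = 0.111 and 18S rRNA p = 0.167, because the new1Δ values of these overlapped (mRNA 44.0% and 36.3% at 20°C, 35.8% and 41.8% at 30°C).

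**Figure D1:**
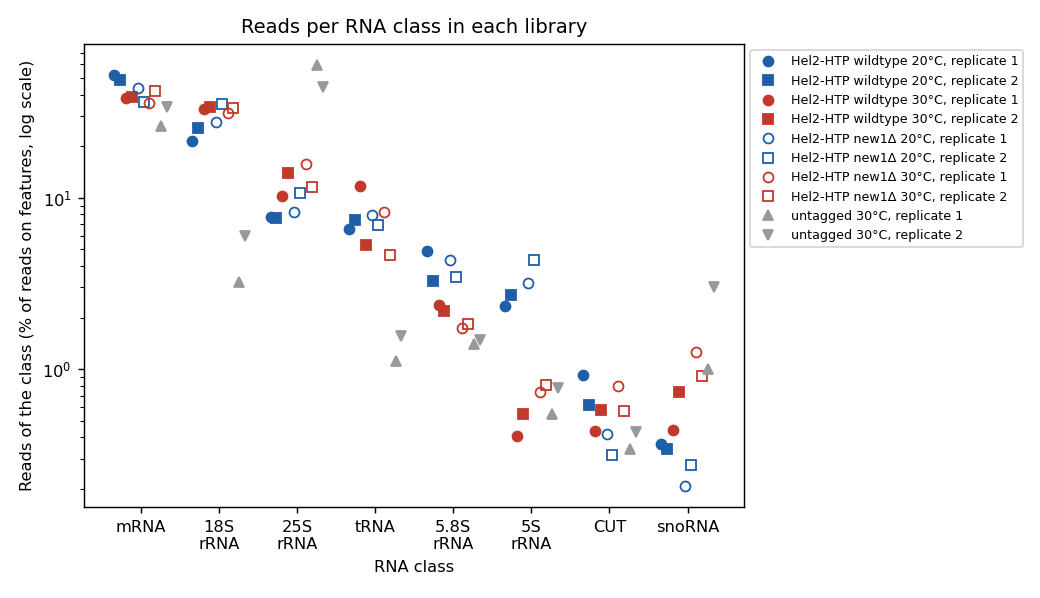
Reads of 8 RNA classes as a percentage of all reads on features, on a log axis, with 1 point per library (blue 20°C, red 30°C, filled wildtype, open new1Δ, grey untagged at 30°C). 5S rRNA lies between 2.35% and 4.36% in all 4 tagged libraries at 20°C and between 0.409% and 0.810% in the tagged libraries at 30°C, while mRNA separates by temperature in wildtype only.

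Transfer RNAs bring amino acids to the ribosome and are named here by amino acid and anticodon, so that tE(UUC) carries glutamate and has the anticodon UUC. Reads of the 288 tRNA features were summed into 43 types with reads, and each type is given as its share of the tRNA reads of a library, which means that a larger share of some types lowers the others. In wildtype, 6 types rose and 2 fell at 20°C against 30°C, or 18.6% of the types tested (14.0% higher and 4.65% lower; edgeR quasi-likelihood test, Benjamini-Hochberg adjusted p under 0.05). The 8 mature sequences are shown because they carry this result, as DNA letters from 5′ to 3′ of the R64 genome with the anticodon in capitals. The types that rose were these.
Glycine, tG(GCC): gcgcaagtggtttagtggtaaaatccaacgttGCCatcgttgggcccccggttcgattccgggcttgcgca
Glutamate, tE(UUC): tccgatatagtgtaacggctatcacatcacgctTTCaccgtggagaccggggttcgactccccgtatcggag
Glutamate, tE(CUC): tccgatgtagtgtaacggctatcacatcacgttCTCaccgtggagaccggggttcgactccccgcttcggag
Arginine, tR(CCU): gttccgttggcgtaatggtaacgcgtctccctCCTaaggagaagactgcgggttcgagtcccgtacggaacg
Alanine, tA(UGC): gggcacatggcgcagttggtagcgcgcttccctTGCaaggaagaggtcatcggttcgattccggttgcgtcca
Arginine, tR(CCG): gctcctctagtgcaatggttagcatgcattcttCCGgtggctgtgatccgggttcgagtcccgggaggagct
The types that fell were these.
Serine, tS(AGA): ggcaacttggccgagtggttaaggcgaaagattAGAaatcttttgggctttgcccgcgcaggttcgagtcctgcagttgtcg
Threonine, tT(AGU): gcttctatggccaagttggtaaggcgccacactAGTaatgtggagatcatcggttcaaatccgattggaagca

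These sequences stand for 16 of 16 genes of tG(GCC), 13 of 14 of tE(UUC), 2 of 2 of tE(CUC), 5 of 5 of tA(UGC), 10 of 11 of tS(AGA) and 11 of 11 of tT(AGU), so that reads of 1 type cannot be placed on 1 gene. Both arginine types that rose come from single genes, tR(CCU) from HSX1 (chrX:538555-538626, + strand) and tR(CCG) from TRR4 (chrXII:818609-818680, + strand), each a tRNA gene without an intron. The sequences of tE(UUC) and tE(CUC) differ at 5 of 72 letters, and short reads that miss those letters fit both. The 6 types that rose are 71 to 73 nt long with a GC content of 55.6% to 60.3%, and the 2 that fell are 73 and 82 nt long with 53.7% (tS(AGA)) and 48.0% (tT(AGU)). Over the 41 nuclear types with a sequence in the annotation the range was 71 to 84 nt and 47.2% to 66.7%, with a median of 55.6%.

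Both glutamate tRNAs took a larger share of tRNA reads at 20°C, with and without the tag. tE(UUC) took 15.8% and 13.6% of tRNA reads at 20°C against 3.90% and 3.26% at 30°C, a log2 difference of 2.03 (SE 0.37, edgeR adjusted p = 0.010). tE(CUC) took 9.19% and 7.21% against 2.09% and 2.29% (log2 1.91, SE 0.46, edgeR adjusted p = 0.012). The ranges of the temperatures stand well apart for both, and new1Δ gave log2 differences of 2.19 and 1.95. Untagged libraries had the same order, with 9.92% and 28.6% at 20°C against 2.11% and 2.10% at 30°C for tE(UUC) and 3.05% and 3.73% against 1.03% and 1.00% for tE(CUC).

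The glycine type tG(GCC) took 10.4% and 19.8% at 20°C against 4.55% and 3.11% at 30°C (log2 1.98, SE 0.47, edgeR adjusted p = 0.012). Untagged libraries did not share this order, with 6.87% and 0.115% at 20°C against 26.6% and 12.5% at 30°C. The alanine type tA(UGC) took 4.36% and 5.70% against 0.566% and 1.04% (log2 2.65, SE 0.64, edgeR adjusted p = 0.012), and without a tag its groups overlapped, with 4.58% and 0 reads against 0 reads and 2.64%.

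Both arginine types had small shares at 30°C. tR(CCU), which decodes AGG, took 5.44% and 8.50% at 20°C against 1.66% and 0.653% at 30°C (log2 2.59, SE 0.71, edgeR adjusted p = 0.024). tR(CCG), which decodes the rare codon CGG, took 1.06% and 0.429% against 0.064% and 0.073% (log2 3.43, SE 0.81, edgeR adjusted p = 0.012). Without a tag tR(CCU) took 8.40% and 13.1% at 20°C against 0.386% and 0.638% at 30°C, levels that at 20°C reached or passed those with the tag. tR(CCG) had 0 reads in the untagged libraries. That allows a share of up to 2.29% and 0.172% in the 20°C replicates and up to 0.0227% and 0.273% in those at 30°C. The bounds of 20°C replicate 1 and 30°C replicate 2 lie above the tagged shares of the same temperature. tR(CCU) had a log2 difference of 1.91 in new1Δ, whereas tR(CCG) had -0.43 there. The test of the difference between strains called 0 of 43 types (0.0%) in edgeR, with 3 types at an unadjusted p under 0.05, and 0 in DESeq2. Without new1Δ 20°C replicate 2 it called 1 type, tN(GUU). Summed, the 6 types that rose took 46.3% and 55.2% of wildtype tRNA reads at 20°C against 12.8% and 10.4% at 30°C. In untagged libraries they took 32.8% and 45.5% against 30.1% and 18.9%.

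The serine type tS(AGA) was the most read tRNA at 30°C and fell from 23.9% and 26.5% there to 12.1% and 7.33% at 20°C (log2 -1.37, SE 0.33, edgeR adjusted p = 0.012). In new1Δ it took 27.4% and 16.1% at 20°C against 23.2% and 26.9% at 30°C, which overlap, and the difference between strains had an adjusted p of 0.592. The threonine type tT(AGU) took 0.419% and 0.386% at 20°C against 5.44% and 2.90% at 30°C (log2 -3.37, SE 0.68, edgeR adjusted p = 0.012), with -3.77 in new1Δ. Without a tag tS(AGA) was also lower at 20°C, with 1.53% and 3.10% against 16.6% and 11.5%. So was tT(AGU), with 0.763% and 0 reads, which allows up to 0.172%, against 4.597% and 1.73%. The shares of tE(UUC), tE(CUC), tR(CCU), tS(AGA) and tT(AGU) thus differed between the temperatures in the same direction in cells without tagged Hel2. These untagged shares rest on 131 and 1741 tRNA reads at 20°C, and whether the differences depend on Hel2 was not tested. The lysine type tK(CUU) took 4.55% and 5.04% against 13.1% and 8.11%, and its difference did not pass the test (log2 -1.14, edgeR adjusted p = 0.112).

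Of the 42 nuclear types, 12 (28.6%) lay higher in both 20°C libraries than in both 30°C libraries and 17 (40.5%) lay lower. Types whose anticodon ends in C, which read codons beginning with G (valine, alanine, aspartate, glutamate and glycine), numbered 11. Of these, 6 lay higher and 1 lower, and they summed to 49.96% and 56.7% of tRNA reads at 20°C against 25.5% and 19.1% at 30°C. This grouping was chosen after the values were seen. The calls rested on all 4 libraries. Without 20°C replicate 1, 20°C replicate 2, 30°C replicate 1 and 30°C replicate 2, in that order, 2, 2, 3 and 1 types were called higher and 2, 1, 3 and 1 lower, and tE(UUC) had an edgeR adjusted p between 0.023 and 0.053. Per reads of the whole library in place of tRNA reads, 0 types were called higher and 1 lower, with log2 differences of 1.65 to 3.15 for the 6 types that rose.

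**Figure D2:**
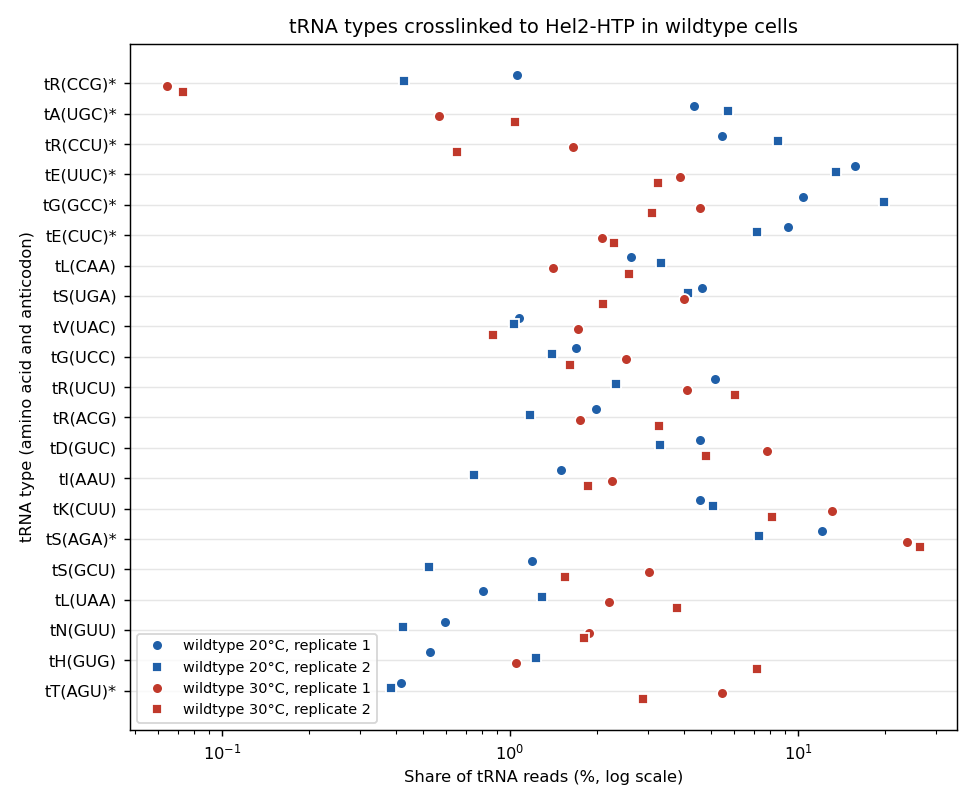
Share of tRNA reads (log axis) of 21 tRNA types in the 4 wildtype libraries, ordered by the fitted log2 difference, with 1 point per library (blue 20°C, red 30°C) and an asterisk for types that passed the test. The 6 types at the top have both blue points to the right of both red points, and tS(AGA) and tT(AGU) have them to the left.

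Protein-coding genes were compared by their reads scaled to 1000000 mRNA reads, with TMM normalisation (CPM) or, for sums of related genes, without it (RPM). None of 4831 genes tested was called in either direction (0.0% called, edgeR quasi-likelihood test with Benjamini-Hochberg adjustment), while 115 genes had an unadjusted p under 0.05, 25 of them higher at 20°C and 90 lower. DESeq2 on the same genes called 5 higher and 20 lower. The self-test on simulated counts with this spread recovered 0 of 50 genes changed 4-fold and 9 of 49 changed 16-fold, and called 2 unchanged genes. Its changed genes were drawn at random from those above the median read level, so this recovery does not describe the most read genes. In the main fit ADH1, among the most read, passed in new1Δ at a log2 difference of -1.93 (edgeR adjusted p = 0.00077). A gene that was not called may still differ. The genes below are therefore given by their values. Restricting the fit to the 506 genes with at least 100 reads in every wildtype library, a choice made after seeing the data, called 3 (0.593%), TDH2, RPL41A and FAS2, all higher at 20°C, and with all reads of a library as the scale 6 were called higher and 0 lower. In new1Δ the main fit gave smaller log2 differences for TDH2, RPL41A and FAS2, at 0.16, 0.40 and 0.37. Their differences between strains did not pass the test in that fit.

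Among glycolytic enzymes, TDH2, 1 of 3 genes for glyceraldehyde-3-phosphate dehydrogenase, had 11153 and 20009 reads at 20°C against 3639 and 1974 at 30°C. That is 13437 and 14995 CPM against 3909 and 5739 CPM, with no overlap (log2 1.56, SE 0.29, edgeR adjusted p = 0.302, and 0.019 among the 506 well-read genes). Its copies are nearly identical and short reads may be placed on any of them, so the sum of TDH1, TDH2 and TDH3 is the safer value, and it was 48522 and 44100 RPM at 20°C against 25463 and 27285 at 30°C. The 28 glycolysis and fermentation genes tested had 19 log2 differences above 0 and 9 below (median 0.35, with 0 called), against a median of -0.10 over all genes. They took 17.8% and 17.7% of mRNA reads at 20°C against 13.9% and 13.8% at 30°C, while in new1Δ they took 11.7% and 13.2% against 11.8% and 12.2%.

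FAS1, FAS2, ACC1 and URA2, large enzymes of fatty acid and pyrimidine synthesis, had more of the mRNA reads at 20°C. FAS2, the alpha subunit of fatty acid synthase, had 2988 and 5529 reads at 20°C against 1405 and 538 at 30°C, or 3600 and 4143 against 1509 and 1564 CPM (log2 1.33, SE 0.37). FAS1, the beta subunit, had 3994 and 6271 against 1840 and 3035 CPM, and ACC1, acetyl-CoA carboxylase, had 2972 and 3834 against 1140 and 1794 CPM. All 3 had both colder libraries above both warmer ones. URA2, which catalyses the first steps of pyrimidine synthesis, had 3075 and 3590 against 595 and 1087 CPM (log2 1.99, SE 0.56). The methods, unlike the labels, give a medium without uracil for the colder cultures only, and its part in this difference was not tested. The 14 pyrimidine genes, URA2 among them, did not share a direction, since 7 lay above 0 and 7 below (median 0.08). The list took 0.478% and 0.478% of mRNA reads against 0.255% and 0.232%.

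Single genes of the cell surface and of translation had the same order, although elongation and initiation factors as lists had medians of 0.07 and -0.14. Nutrient transporters and pumps had a median of -0.03, and of their 18 well-read genes 2 lay higher in both 20°C libraries and 5 lower. Cell wall genes had a median of 0.35 but a smaller share of mRNA reads at 20°C (2.40% and 2.30% against 2.61% and 3.06%). FKS1, a catalytic subunit of glucan synthase in the cell wall, had 3067 and 1885 CPM at 20°C against 232 and 826 at 30°C (log2 2.23, SE 0.67). PMA1, the plasma membrane proton pump, had 5165 and 6561 against 1618 and 3887 CPM, and PDR5, a drug efflux pump, had 1505 and 1365 against 482 and 483 CPM. YEF3, the fungal elongation factor eEF3 and a relative of New1, had 9188 and 9944 against 4692 and 5585 CPM (log2 0.90, SE 0.27). PAB1, the poly(A)-binding protein, had 1732 and 1667 against 595 and 776 CPM. The groups of each of these genes were separate, and YGP1, a secreted glycoprotein with a shorter coding sequence, also had 686 and 761 against 66.6 and 224 CPM.

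The short mRNAs CCW12, RPP2A and RPS21A had less of the mRNA reads at 20°C. CCW12, a small mannoprotein of the cell wall, had 4139 and 5882 reads at 20°C against 10842 and 4407 at 30°C, or 4987 and 4408 against 11648 and 12813 CPM (log2 -1.38, SE 0.28, edgeR adjusted p = 0.302). RPP2A, an acidic protein of the ribosomal stalk, had 154 and 494 against 1983 and 3152 CPM (log2 -2.98, SE 0.62, edgeR adjusted p = 0.302). RPS21A, of the small subunit, had 318 and 404 against 897 and 875 CPM (log2 -1.29, SE 0.29, edgeR adjusted p = 0.535), and its pair RPS21A and RPS21B summed to 778 and 576 against 1734 and 1460 RPM. In wildtype the colder libraries lay below the warmer ones for all of these. In new1Δ the log2 differences were -1.45 for CCW12, -2.76 for RPP2A and 0.11 for RPS21A. RPS21A and RPS21B summed to 23497 and 21986 RPM at 20°C against 15070 and 19202 at 30°C in new1Δ, the opposite order. With the replicate number as a block, CCW12 (edgeR adjusted p = 0.019), RPP2A (0.005) and RPS21A (0.020) were called lower and TDH2 (0.005) and RPL41A (0.009) higher. The numbers do not pair the samples, since deviations of same-numbered wildtype libraries correlated at 0.039 across 4831 genes. The calls of that fit are therefore given as an alternative only and add no support.

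Histones package DNA, and each core histone comes from a pair of nearly identical genes whose reads are best summed. HTA1 and HTA2, histone H2A, summed to 439 and 372 RPM at 20°C against 2172 and 2008 at 30°C. HHF1 and HHF2, histone H4, summed to 748 and 571 against 2258 and 1948. The 8 core histone genes together had 5353 and 5948 against 10634 and 9191, so that the groups were separate. In untagged cells at 30°C HHF1 and HHF2 summed to 2482 and 4655 RPM, above the tagged libraries, HTA1 and HTA2 to 715 and 889 and the core histones to 6965 and 9734. Histone H3, from HHT1 and HHT2, did not share this, with 3119 and 4008 against 4445 and 3277.

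Ribosomal proteins had the most uniform direction of the lists. Of 82 large-subunit genes tested, 76 had a log2 difference below 0 and 6 above (median -0.64, 0 called), and of 56 small-subunit genes, 51 lay below and 5 above (median -0.85, 0 called). The median over all 4831 genes was -0.10, with 2268 above 0 and 2530 below. Among genes read at least 10 times in every wildtype library, both 20°C libraries lay below both 30°C libraries for 55 of 80 large-subunit and 43 of 55 small-subunit genes, against 361 of all 1468 such genes (24.6%), and above for 2 and 0, against 328 (22.3%). Coding sequences of the large-subunit and small-subunit genes were short, with medians of 459 and 432 nt against 1323 nt over all genes. In the shortest quintile of coding length (78-690 nt), such well-read mRNAs other than those of ribosomal proteins had a median of -0.53. All ribosomal protein mRNAs took 14.4% and 14.0% of mRNA reads at 20°C against 21.7% and 20.0% at 30°C. In new1Δ the shares were 19.3% and 16.6% against 22.3% and 22.9%, and in untagged cells at 30°C they were 11.9% and 10.8%.

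Single members ranged widely within this list. RPS30B, which makes a short protein of the small subunit, had 112 and 323 CPM at 20°C against 1190 and 1032 at 30°C (log2 -2.35, SE 0.80). RPL10, the most read large-subunit gene, had 8090 and 10469 against 14108 and 11673 CPM (log2 -0.47, SE 0.28), and RPS2 had 2914 and 2955 against 3663 and 3948 CPM. Of the 5 well-read large-subunit genes above 0, RPL41A lay farthest from it. It encodes the shortest ribosomal protein and had 7126 and 9846 reads at 20°C against 1785 and 752 at 30°C, or 8585 and 7378 against 1918 and 2186 CPM (log2 1.96, SE 0.40, edgeR adjusted p = 0.302, and 0.020 among the 506 well-read genes). With its copy RPL41B it summed to 10504 and 7786 against 3237 and 3154 RPM.

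**Figure D3:**
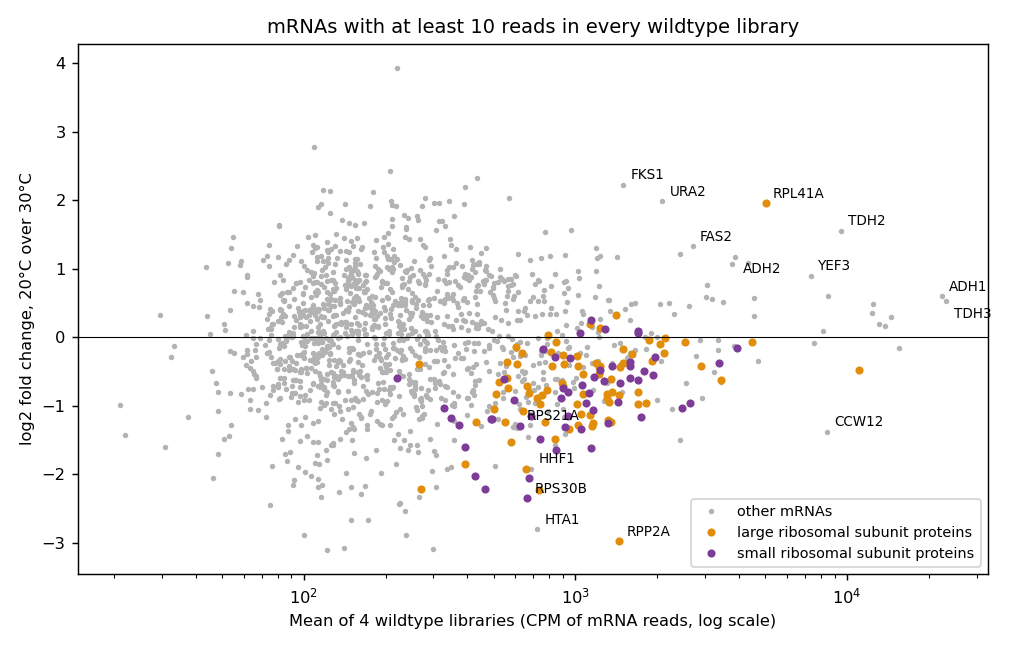
Fitted log2 difference of wildtype libraries, 20°C over 30°C, against mean CPM (log axis) for the 1468 mRNAs with at least 10 reads in every wildtype library, with ribosomal proteins in colour. Most ribosomal protein points lie below 0, with RPL41A at 1.96 the highest of those above 0, and the labelled long mRNAs FKS1, URA2 and FAS2 lie at 2.23, 1.99 and 1.33.

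The length of the coding sequence ordered the differences. In quintiles of coding length, from 78-690 nt to 2280-14733 nt, the median log2 difference was -0.82, -0.36, -0.03, 0.08 and 0.55 over all genes tested, and -0.66, -0.17, 0.07, 0.09 and 0.56 over those with at least 10 reads in every wildtype library. Of the latter, 161 of 385 in the longest quintile (41.8%) lay higher in both 20°C libraries and 27 (7.01%) lower, whereas 13 of 295 in the shortest quintile (4.41%) lay higher and 170 (57.6%) lower. The longest quintile counts copies of Ty retrotransposons as separate genes, such as YJR029W, YMR050C and YML039W (log2 0.68, 0.84 and 0.87). Short reads may be placed on any of these similar copies, so the genes counted in that quintile are not all independent. The shortest quintile took 20.2% and 19.9% of mRNA reads at 20°C against 31.4% and 29.6% at 30°C, and the longest quintile 21.1% and 21.3% against 13.2% and 14.4%.

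The read-weighted mean coding length was 1698 and 1709 nt at 20°C against 1345 and 1391 nt at 30°C, or 1704 ± 7.49 against 1368 ± 32.4 (SD, n = 2 each). Without ribosomal protein genes it was 1894 and 1897 against 1571 and 1606 nt, and in distinct cDNAs 1766 and 1829 against 1445 and 1441 nt. The new1Δ libraries had 1502 and 1558 against 1301 and 1257 nt, and the exact permutation test within strain gave p = 0.0556, the smallest it allows. Untagged libraries at 30°C had 1820 and 1846 nt, longer than tagged ones at the same temperature. In quintiles of GC content, from low to high, the medians of the same genes were 0.09, 0.19, 0.11, -0.07 and -0.19, and the share lower in both 20°C libraries was 15.1% in the lowest and 35.1% in the highest. The read-weighted mean GC content was 42.7% and 42.8% against 42.9% and 42.8%. RNase digestion and size selection, which act on fragment length, differed between the temperatures, and their part in this order was not tested.

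**Figure D4:**
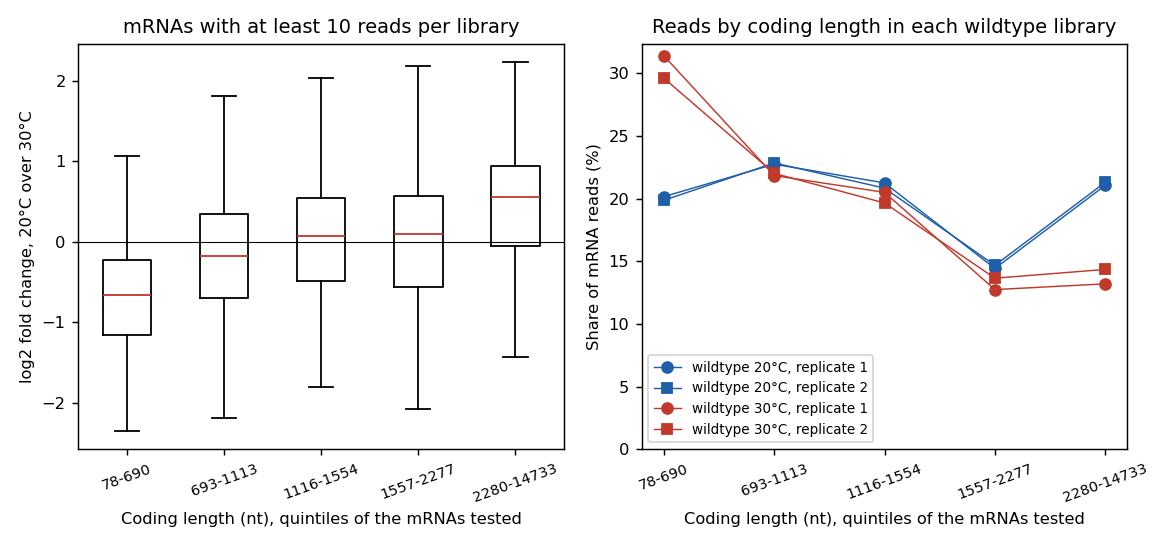
Left, log2 difference of wildtype libraries, 20°C over 30°C, in quintiles of coding length for mRNAs with at least 10 reads in every wildtype library (line: median; box: quartiles; whiskers: to the last point within 1.5 box lengths). Right, share of mRNA reads in each quintile per wildtype library, where the shortest quintile has 19.9% to 20.2% at 20°C and 29.6% to 31.4% at 30°C.

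The genes of Hel2's own pathway lay above the other genes in the fitted values, with few reads. Of 26 genes for collision sensing and ribosome quality control, 20 lay above 0 and 6 below (median 0.73, 0 called), but only 12 had at least 10 reads in every wildtype library, 4 of them higher in both 20°C libraries (33.3%, against 22.3% of all such genes) and 2 lower (16.7%, against 24.6%). Their coding sequences were long, with a median of 2233.5 nt against 1323 nt over all genes. The list took 0.894% and 0.875% of mRNA reads at 20°C against 0.804% and 0.809% at 30°C. GCN1, which binds collided ribosomes and activates the Gcn2 kinase, had 1300 and 1009 against 808 and 509 CPM (log2 0.81, SE 0.69). ASC1, a small-subunit protein needed for ribosome quality control, went the other way with 2225 and 3087 against 4037 and 4335 CPM (log2 -0.66, SE 0.37).

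Genes named for cold and stress had few reads. Of 11 cold-induced genes tested, 9 lay above 0 and 2 below (median 0.60, 0 called), and they took 0.332% and 0.426% of mRNA reads at 20°C against 0.261% and 0.329% at 30°C. HSP12, a membrane-stabilising stress protein, had 753 and 1734 reads against 50 and 383, or 907 and 1299 against 53.7 and 1114 CPM, so that the difference came mostly from 30°C replicate 1 (log2 -0.06 without that library). General stress, trehalose and glycogen genes had 19 of 29 above 0 (median 0.73, 0 called) and 0.902% and 0.918% against 0.500% and 0.782% of mRNA reads. That median was 0 without 20°C replicate 2, -0.03 without 30°C replicate 1 and 2.92 without 30°C replicate 2. Cytosolic chaperones were even, with 15 of 32 above 0 (median -0.12, 0 called) and 2.77% and 2.98% against 2.83% and 2.78%. SSA1 and SSA2, near-identical cytosolic Hsp70 chaperones, had 4873 and 5169 against 3756 and 4314 CPM and 2829 and 3775 against 3425 and 3375 CPM, and the latter overlapped. NSR1, a nucleolar protein of ribosome assembly named on the cold-induced list, had 753 and 676 against 394 and 547 CPM (log2 0.60, SE 0.62).

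Metabolic and organelle lists differed among themselves. Nuclear genes of oxidative phosphorylation had 28 of 38 below 0 (median -0.71, 0 called). Their median coding length was 445.5 nt, against 1323 nt over all genes. Mitochondrial ribosomal proteins had 34 of 51 below 0 (median -1.46, 0 called), with only 5 of them read at least 10 times in every wildtype library. Sterol, fatty acid and membrane lipid genes, to which FAS1, FAS2 and ACC1 belong, took 2.01% and 2.09% against 1.45% and 1.44% of mRNA reads, although only 20 of 38 lay above 0 (median 0.15, 0 called). Elongation and termination factors took 5.65% and 5.30% against 4.57% and 4.00%, with 8 of 16 above 0 (median 0.07, 0 called), and initiation factors had 12 of 27 above 0 (median -0.14, 0 called). Tryptophan genes had 6 of 13 above 0 (median -0.09, 0 called), and TRP5, tryptophan synthase, had 1425 and 2513 against 1026 and 724 CPM (log2 1.17, SE 0.51). Other amino acid synthesis genes had 31 of 56 above 0 (median 0.23, 0 called) and 3.48% and 3.74% against 3.59% and 3.52%. Ribosome biogenesis had 18 of 45 above 0 (median -0.38, 0 called), nutrient transporters 19 of 38 (median -0.03, 0 called) and cell wall genes 17 of 29 (median 0.35, 0 called).

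The most read members of these lists mostly had small differences. TEF1 and TEF2, which encode the same elongation factor eEF1A, had 13955 and 13896 against 10657 and 11112 CPM and 14721 and 14359 against 10709 and 10059 CPM. TIF2, a gene for the helicase eIF4A, had 782 and 1913 against 999 and 1247 CPM, which overlap. In amino acid synthesis, MET6, methionine synthase, overlapped with 3032 and 4259 against 4018 and 3977 CPM, whereas ILV5, of branched-chain amino acid synthesis, had 1911 and 2204 against 4034 and 3559 CPM (log2 -0.88, SE 0.38), and ARO4, at the start of aromatic amino acid synthesis, had 702 and 778 against 1382 and 1090 CPM. The groups of the last pair were separate. In the nucleolus, NOP56 and NOP1, proteins of box C/D snoRNA particles, differed in opposite directions, with 1083 and 1153 against 436 and 547 CPM and with 378 and 581 against 761 and 1108 CPM. ATP1 and ATP2, subunits of the mitochondrial ATP synthase, had 1164 and 1317 against 1303 and 1058 CPM and 1882 and 1852 against 1276 and 1390 CPM. URA7, CTP synthase, had 398 and 127 against 448 and 140 CPM, and FET3, an iron oxidase of the plasma membrane, had 328 and 509 against 549 and 227 CPM, so that both overlapped. HSP150, a secreted wall mannoprotein, overlapped with 2019 and 2756 against 1300 and 2122 CPM, as did RPS31, a ubiquitin fusion of the small subunit, with 3159 and 4252 against 4707 and 3585 CPM. SOD1, superoxide dismutase, had 1146 and 1339 against 1758 and 1619 CPM. The mitochondrial ribosomal proteins MRPS18 and MRPL36 had 128 and 93 against 302 and 74 reads and 0 and 137 against 444 and 53 reads.

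The sign of the median was kept in 8 alternatives for 6 lists, namely both ribosomal subunits, glycolysis, collision sensing, cold-induced genes and oxidative phosphorylation, and changed in at least 1 alternative for the other 15 lists and codon classes. Single libraries moved the size of these medians. Glycolysis ranged from 0.11 without 20°C replicate 2 to 0.65 without 30°C replicate 2, and cold-induced genes from 0.13 to 0.75 without the same libraries. Collision sensing ranged from 0.26 without 30°C replicate 1 to 1.09 without 30°C replicate 2, and oxidative phosphorylation from -1.27 without 20°C replicate 2 to -0.21 without 30°C replicate 2.

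**Figure D5:**
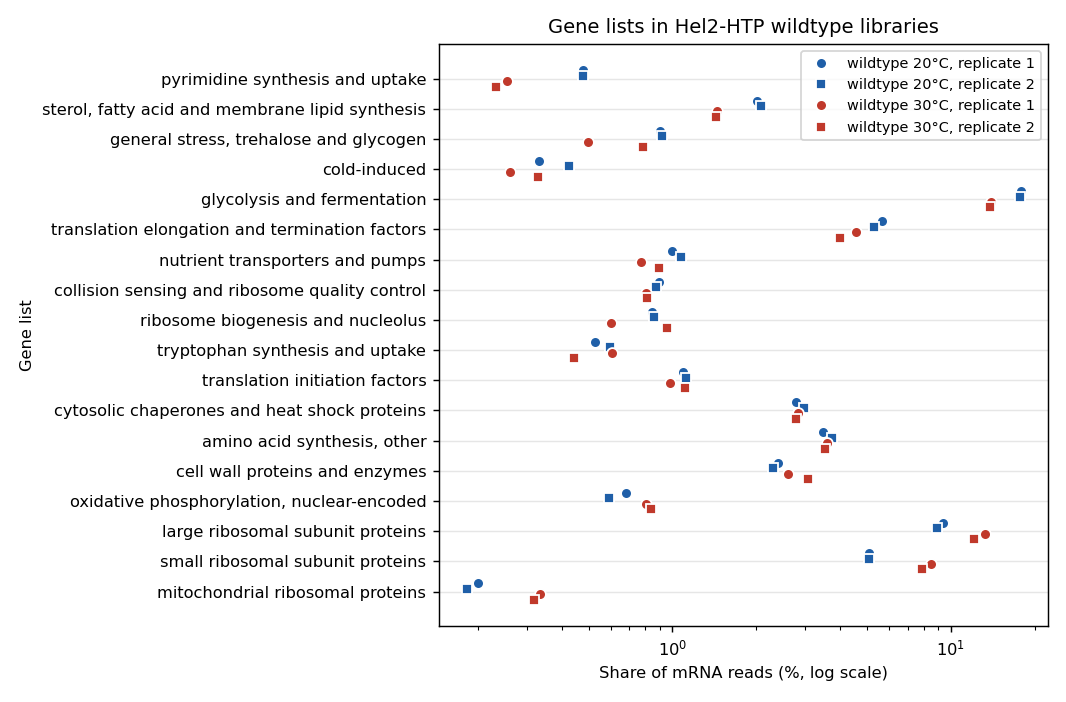
Share of mRNA reads (log axis) of 18 gene lists in the 4 wildtype libraries, ordered by the ratio of 20°C to 30°C (blue 20°C, red 30°C, 1 point per library). Glycolysis lies at 17.7% and 17.8% at 20°C against 13.8% and 13.9% at 30°C, and both ribosomal subunits lie lower at 20°C.

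The medians of mRNAs grouped by their last sense codon lay close together in wildtype. mRNAs ending in AAA, AGG or CGU, the codons on which ribosomes queue when New1 is absent, had a median log2 difference of -0.27 (602 genes, 0 called), those ending in codons for cysteine, asparagine or serine or in CGA, CGC or CGG had -0.13 (754 genes, 0 called) and all others -0.06 (3475 genes, 0 called). The AAA, AGG or CGU group took 18.9% and 18.7% of mRNA reads at 20°C against 16.8% and 16.2% at 30°C, and 33.3% and 27.9% against 30.7% and 35.9% in new1Δ. Among genes read at least 10 times in every wildtype library, 22.9% of that group lay higher in both 20°C libraries and 27.7% lower, near the 22.3% and 24.6% of all such genes.

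The temperature difference of wildtype cells was tested against that of new1Δ cells in the same fit. Of 4831 genes, 2 differed (0.0414%; edgeR, Benjamini-Hochberg adjusted), both alcohol dehydrogenases. ADH1, the main enzyme that makes ethanol, had 19248 and 40773 reads at 20°C against 14920 and 6703 at 30°C in wildtype (log2 0.60), and 5295 and 3185 against 27231 and 8716 in new1Δ (log2 -1.93). ADH2, which oxidises ethanol, had 4338 and 7364 against 1723 and 1003 in wildtype (log2 1.17) and 415 and 305 against 3439 and 889 in new1Δ (log2 -2.32). The log2 differences between strains were 2.53 (SE 0.29, edgeR adjusted p = 0.0016) and 3.50 (SE 0.52, edgeR adjusted p = 0.020). These genes are nearly identical and may share reads, and their sum was 31638 and 33590 RPM at 20°C against 19603 and 21028 at 30°C in wildtype and 8345 and 10566 against 31494 and 24431 in new1Δ. ADH1 was called in each of the 4 fits that left out a wildtype library. ADH2 was not called without 20°C replicate 1 (edgeR adjusted p = 0.129), without 20°C replicate 2 (0.105) or without 30°C replicate 1 (0.096), and without 30°C replicate 2, where it was called, 19 genes passed in all. Without new1Δ 20°C replicate 2 neither was called (log2 2.35 and 3.46, edgeR adjusted p = 0.063 for both), and 3 other genes were, RPL30, RPL8A and RPL43B.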

How the data were processed

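The authors aligned reads with novoalign and, per the file headers, counted them with pyReadCounters on Ensembl annotation of the R64 genome with noncoding transcripts added. The program was version 1.4.4 for the colder and 1.4.2 for the warmer cultures. The deposited counts are sense reads per feature, neither collapsed nor normalised, and a read is counted on every feature it overlaps. Antisense reads enter the deposited column of distinct cDNAs, an alternative here. Depth ranged from 961836 to 2965747 reads per wildtype library. Of the protein-coding features, 5838 matched 1 nuclear R64 gene and 589 none, and reads on the rest, 1.35% to 1.70% of wildtype mRNA reads, were left out.

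Groups came from the labels. Genes (filterByExpr, TMM) and tRNA types (library size: all tRNA reads) were fitted on the 8 Hel2-HTP libraries in 4 groups with edgeR 4.0.16 (R 4.3.3; quasi-likelihood, Benjamini-Hochberg, threshold 0.05), without a block, and tested on simulated data. DESeq2 1.42.0, other scalings, filters, distinct cDNAs, the block and leaving out libraries were alternatives. Named genes were those past the threshold, else the 6 of smallest p in each direction with at least 10 reads in every wildtype library, HEL2, NEW1 and the 2 most read genes of each list. FAS1, ACC1, PMA1, PDR5, YGP1, TRP5, PAB1 and the histone and paralog sums were added or singled out after values were seen. Members, lists and tests were chosen with earlier results of these data known. Called or not, p-values cover the spread of 2 cultures per group. The authors' RPKM values and 3′-end positions were not used.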

Additional observations from a re-analysis of the deposited data

Results flagged for a closer look

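The log2 temperature differences of ADH1 and ADH2 had opposite signs in wildtype (0.60 and 1.17) and new1Δ (-1.93 and -2.32). Wildtype minus new1Δ was 2.53 for ADH1 and 3.50 for ADH2. Both passed the edgeR test of the difference between strains (adjusted p = 0.0016 and 0.020). Neither passed it without new1Δ 20°C replicate 2, whose file header names another input (adjusted p = 0.063 for both). Wildtype libraries of both genes lay higher at 20°C and new1Δ libraries lay lower, and short reads of these near-identical genes cannot be assigned with certainty.

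The CUT share lay higher at 20°C in both wildtype libraries and lower in both new1Δ libraries, with a difference between the strains of 0.581 percentage points of reads. In distinct cDNAs the wildtype difference was -0.0729 percentage points. The cell wall list moved in opposite directions too, with 2.40% and 2.30% against 2.61% and 3.06% of mRNA reads in wildtype and 2.64% and 2.60% against 2.22% and 2.08% in new1Δ, a difference of -0.956 percentage points. Neither difference between strains was tested.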

How the results depend on the processing

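The gene counts depended on the setting. Higher and lower genes numbered 5 and 20 with DESeq2 (2248 genes without an adjusted p), 1 and 2 with its size factors, 6 and 0 with all reads as library size, 2 and 2 with at least 10 reads in every library, 3 and 0 with at least 100 reads in every wildtype library, 2 and 6 with no filter, 0 and 0 with distinct cDNAs (168 genes at an unadjusted p under 0.05) and 0 and 0 with wildtype libraries only (165 genes). With the replicate block they were 2 and 3, and the deviations of same-numbered wildtype libraries correlated at 0.039 across 4831 genes, so that the numbers do not pair the samples. Leaving out 1 wildtype library gave 0 to 20 higher genes (20 without 30°C replicate 2) and 0 to 3 lower. Genes that differed between strains numbered 14 with DESeq2, 9 with at least 100 reads, 6 with no filter, 4 with the replicate block, 3 without new1Δ 20°C replicate 2 (added after seeing the data) and 1 to 19 when a wildtype library was left out, and 2 or 3 with the other scalings, the filter at 10 reads and distinct cDNAs.

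Of tRNA types, 0 were called higher and 1 lower with all reads as library size, 2 and 1 with distinct cDNAs, 6 and 1 with TMM, 6 and 6 with wildtype libraries only, 5 and 3 with the replicate block and 1 to 3 in each direction when a library was left out. The 8 called types kept their direction in 80 values, 34 of which no longer passed the threshold.

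In distinct cDNAs the class differences were smaller, at -2.81 (18S rRNA), -1.99 (25S), 0.5996 (5.8S), 0.516 (5S) and 3.59 (mRNA) percentage points, and the CUT difference turned to -0.0729. Outside rRNA they were 6.97 (mRNA), -4.82 (tRNA) and -0.583 (snoRNA). The tRNA difference ranged from -4.65 to 1.72 when a library was left out (1.72 without 30°C replicate 1). The longest minus the shortest quintile of coding length had a median log2 difference of 1.37, and 1.17 to 2.83 when a library was left out (2.83 without 20°C replicate 2).

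Of 637 values of 50 genes, 28 changed sign, all in 10 genes with small or noisy differences. With all reads as library size these were SSA2 (0.34), URA7 (0.27), MET6 (0.24), RPS31 (0.21) and RPS2 (0.034), with at least 100 reads SSA2 (0.17), MET6 (0.081) and RPS31 (0.038), and with distinct cDNAs SSA2 (0.12) and RPS31 (0.059). ATP1 and FET3 gave -0.030 and -0.046 with DESeq2, -0.029 and -0.045 with its size factors, and FET3 gave -0.065 with the replicate block. When a library was left out, values ranged from -0.41 to 1.03 for HEL2, -0.058 to 4.35 for HSP12, -0.26 to 0.11 for SSA2, -1.23 to 0.88 for URA7, -0.39 to 0.053 for MET6, -0.52 to 0.73 for TIF2, -0.073 to 0.19 for ATP1, -0.39 to 0.84 for FET3 and -0.39 to 0.0038 for RPS31. The cause of these changes was not tested. Read numbers limit most genes, since 1468 of 4831 tested had at least 10 reads in every wildtype library. Of 5838 genes, 889 had no read in either wildtype library at 20°C but some at 30°C, and 246 had the reverse. The library 30°C replicate 2 had reads on 5008 genes, against 2995 to 4044 in the other wildtype libraries. Its part in these counts was not tested.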
